A study of Mus musculus with 18 samples.

Results

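The comparison set mature osteoclasts against pre-osteoclasts, the last step of osteoclast formation in culture, in cells with intact estrogen receptor α (ERα). Bone marrow macrophages (BMMs) from ERαf/f control mice on a C57BL/6 background were grown with 30 ng/ml M-CSF and then with 30 ng/ml M-CSF and 30 ng/ml RANKL for 2 days (pre-osteoclasts) or 4 days (mature osteoclasts). Of the 18 Illumina MouseRef-8 arrays of the study, 6 entered the comparison, 3 of pre-osteoclasts and 3 of mature osteoclasts, chosen by their sample titles. The other arrays held control BMMs, taken before RANKL, and the same 3 stages of ERαΔLysM cells, in which Cre expressed from the lysozyme M locus deletes the floxed receptor gene in myeloid cells. Control cells carried the floxed allele without Cre and came from littermates. The mice were young adults by the study's methods, which also describe a short exposure of the cells to E2 before RNA was taken. The sample labels do not mention E2. By that account all the arrays shared it. No sorting of the cells after RANKL is described, and the labels give no age or sex.

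Osteoclasts are the cells that resorb bone. M-CSF keeps their macrophage precursors alive and dividing, and RANKL, through its receptor RANK and costimulatory receptors that signal through ITAM motifs, induces the transcription factor NFATc1. Pre-osteoclasts are still mononuclear. They leave the cell cycle, fuse into multinucleated cells, attach to bone through an actin ring, pump acid across a ruffled border with the vacuolar proton pump (V-ATPase) and release cathepsin K and other hydrolases from lysosome-related vesicles.

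Of 25697 probes on the arrays, 11484 had a detection p-value under 0.05 on at least 3 of the 6 arrays and were tested. They stood for 7878 genes. All levels below are the deposited normalized log2 signals, whose highest value was 15.08, and a difference is the mean of mature osteoclasts minus that of pre-osteoclasts, so that 1 unit is a doubling of the normalized signal. With limma's moderated test and a Benjamini-Hochberg adjusted p under 0.05, 2867 probes (25% of those tested) were higher in mature osteoclasts and 3014 (26.2%) were lower. A difference of at least 1 log2 unit was found for 798 higher (6.95%) and 875 lower probes (7.62%). With 1 probe per gene, that of the highest mean level, 1985 of the genes rose (25.2%) and 2160 fell (27.4%), and the median difference over all of them was 0.00. The counts of each gene list below are to be read beside these shares. With arrays centred on their median in place of quantile normalization, 3374 probes passed, of which 37.2% were higher, against 48.8% of 5881 in the deposited values. Arrays of the same stage correlated at 0.985 to 0.986 for pre-osteoclasts and 0.990 to 0.991 for mature osteoclasts, and arrays of different stages at 0.932 to 0.939. The median scanner signal was 131 in pre-osteoclast replicate 3 and 163 to 181 on the other 5 arrays. It is not stated whether the 3 arrays of a stage came from separate mice or cultures, so that p-values measure the spread between these samples, which may be technical. Bulk RNA cannot tell fewer cells of a type from less RNA per cell.

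Genes of the resorption machinery rose, while Ctsk and Mmp9 lay near the top of the scale at both stages and did not pass the test. Of 20 tested genes for bone resorption, 14 rose, 0 fell and 6 did not pass the test, with a median difference of 0.83. Ctsk, which encodes cathepsin K, the collagen-degrading protease of the osteoclast, read 14.94, 14.85 and 14.73 in pre-osteoclasts and 14.73, 14.72 and 14.84 in mature osteoclasts. Mmp9, a gelatinase, read 14.81, 14.57 and 14.64 before and 14.85, 14.87 and 14.87 after. Neither difference passed the test (-0.08 ± 0.11 SE, adjusted p = 0.574 for Ctsk and 0.19 ± 0.14, adjusted p = 0.27 for Mmp9), although the Mmp9 arrays of the stages did not overlap. Both probes lay close to the top of the scale, where Ctsk ranked 14 and Mmp9 34 among the tested probes in pre-osteoclasts, against mean levels in BMMs of 7.40 and 6.57. Of 80 probes with a mean of at least 14 at both stages, 25 passed the test. The scanner signal of Ctsk ran from 17399 to 39360 at day 2 and from 31174 to 34911 at day 4, and the highest of any probe on the 6 arrays was 42671.

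Calcr, the calcitonin receptor and a marker of late osteoclasts, had the largest difference of the resorption genes. Its brighter probe read 5.13, 4.75 and 5.43 in pre-osteoclasts, detected on 1 of 3 arrays, and 8.05, 8.14 and 8.51 in mature osteoclasts (difference 3.13 ± 0.26 SE, adjusted p = 6.8e-08). A second Calcr probe was detected on 0 of 3 and then 3 of 3 arrays and was at least 2.87-fold higher. Oscar, a collagen-binding costimulatory receptor of the osteoclast, read 10.92, 10.55 and 10.68 and then 13.94, 13.54 and 13.75, an 8.13-fold difference (adjusted p = 3.61e-09). Acp5, the tartrate-resistant acid phosphatase TRAP used to stain osteoclasts, read 10.45, 10.34 and 10.21 and then 11.66, 11.56 and 11.72, which was 2.49-fold higher. For all 3 genes every mature osteoclast array lay above every pre-osteoclast array. Such a lack of overlap, in either direction, was found for 6537 of the 11484 tested probes.

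Genes for acid transport rose as well. Clcn7, the chloride-proton exchanger of the ruffled border, rose by 1.46 from 11.18 ± 0.12 (SD, n = 3) and its partner subunit Ostm1 by 1.02 from 11.98. Slc4a2, the chloride-bicarbonate exchanger of the opposite membrane, rose by 1.32 from 11.97. Car2, the carbonic anhydrase that supplies protons, read 10.94, 10.85 and 10.51 and then 11.42, 11.51 and 11.52 (1.65-fold, adjusted p = 8.35e-05). Of 16 tested V-ATPase subunits, 13 rose and 0 fell, with a median of 0.61. Atp6v1g1 (1.15), Atp6v1f (0.97), Tcirg1 (0.84), the osteoclast form of the large membrane subunit, and Atp6v1c1 (0.83) rose most. The brightest of 4 Tcirg1 probes is the one given, and the other 3 rose by 0.91 to 1.59. The large-subunit isoforms Atp6v0a1 (-0.21) and Atp6v0a2 (0.02), which serve other compartments, did not pass. Atp6v0d2 and Itgb3, the integrin β3 chain of the osteoclast, were read by 1 probe each that was not detected on any of the 6 arrays, and their levels are therefore not known. The 11 osteoclast markers on the array, of which 9 were tested and 7 rose, summed to a linear signal of 62405 to 71630 at day 2 and of 85214 to 91259 at day 4.

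**Figure D1:**
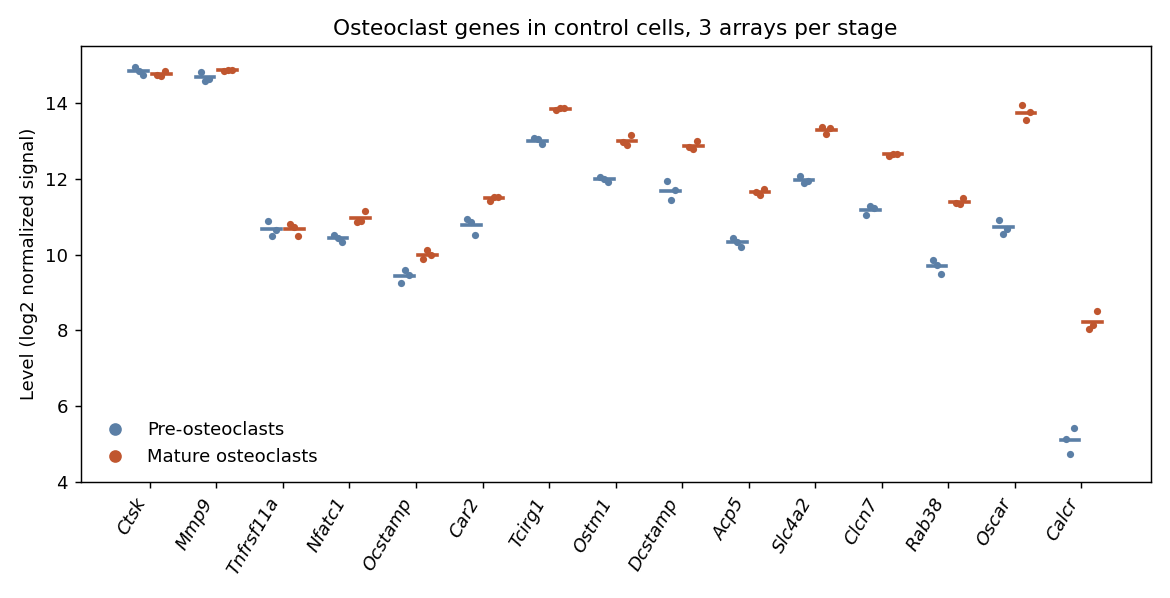
Level of 15 osteoclast genes on each array (log2 normalized signal, dots) with the mean of 3 arrays (bars), in pre-osteoclasts (blue) and mature osteoclasts (orange) of control mice. Ctsk and Tnfrsf11a overlapped between the stages, while Oscar rose by 3.02 and Calcr by 3.13.

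Fusion genes moved in both directions. Of 10 tested, 3 rose, 3 fell and 4 did not pass, against 25.2% higher and 27.4% lower over all genes. Their median was 0.09, and -0.02 with median-centred arrays. Dcstamp and Ocstamp encode the membrane proteins that osteoclast fusion requires. Dcstamp read 11.69 ± 0.26 (SD, n = 3 arrays) after 2 days and 12.87 ± 0.12 after 4 days, with no overlap between the stages (difference of 1.19 ± 0.16 SE, adjusted p = 1.44e-05), and Ocstamp rose by 0.56 from 9.44. The tetraspanin Cd9 rose by 0.42. Its relative Cd81 fell by 0.95, the metalloprotease Adam8 fell by 1.40, and Trem2, a receptor that pairs with DAP12, read 10.87, 11.32 and 11.30 and then 9.57, 9.92 and 9.62.

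Receptor signaling genes downstream of RANK and ITAM receptors were split as well, with 7 of 21 higher, 7 lower and 7 not past the test, shares not far from the 25.2% and 27.4% over all genes. Tnfrsf11a, which encodes RANK itself, read 10.89, 10.48 and 10.65 and then 10.80, 10.73 and 10.50 (0.00 ± 0.18 SE, adjusted p = 0.995). Beside Oscar, the kinase Src, needed for the ruffled border, rose by 0.82 on its brighter probe (a second, dim probe differed by -0.04 and did not pass), the adaptor Tyrobp (DAP12) by 0.69 and Rgs10 by 0.54. On the other side, Trem2 fell by 1.46, Sirpb1a by 1.31, the adaptor Blnk by 0.80 and the lipid kinase Pik3cg by 0.75. 

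Among 21 tested transcription factors of osteoclast formation, 7 rose, 7 fell and 7 did not pass, against 25.2% higher and 27.4% lower over all genes. Nfatc1, the factor that RANKL induces, read 10.52, 10.44 and 10.32 and then 10.86, 10.88 and 11.14 on its brightest probe (0.54 ± 0.11 SE, adjusted p = 6.13e-04), and did not pass with median-centred arrays (0.55, limma adjusted p = 0.137). Its other 3 tested probes differed by 0.31 to 0.95, and 1 of them did not pass. The AP-1 subunits went separate ways. Jund rose by 1.34 and Jun by 1.23, while Fos read 12.96, 12.32 and 12.43 and then 11.70, 11.64 and 11.83 and fell by 0.84. The factor Mitf, a partner of PU.1 in osteoclasts, fell by 1.58 from 9.59 and Spi1, which encodes PU.1, rose by 0.62, a call lost with median-centred arrays (limma adjusted p = 0.0851). Pparg fell by 1.91 and Myc by 1.32, each detected on 3 of 3 and then 1 of 3 arrays. Myc read 6.61, 7.24 and 6.35 and then 5.30, 5.25 and 5.70, with a mean of 6.05 in BMMs. Of 10 tested repressors of the osteoclast fate 0 rose and 4 fell, among them Klf4 (by 1.71), Cebpb (by 0.86) and Id3 (by 0.85), while Bcl6 (0.00) and Id2 (-0.19) did not pass.

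The largest single differences were outside the classical osteoclast genes. Enpp5, a member of the ectonucleotide pyrophosphatase family, read 5.23, 4.87 and 4.70 in pre-osteoclasts, where it was not detected, and 10.27, 10.22 and 10.32 in mature osteoclasts, at least 29.6-fold higher (adjusted p = 1.53e-13). Mustn1, a nuclear protein first known from developing muscle and skeleton, rose 30.5-fold from 5.41, 5.87 and 5.48 to 10.55, 10.58 and 10.42, and its second probe by 5.04 log2 units. Rcan2, an inhibitor of calcineurin, the phosphatase that activates NFATc1, read 4.62, 4.76 and 4.54 and then 9.11, 9.18 and 9.10, at least 13.5-fold higher, and its second probe was at least 5.26-fold higher. None of them was detected in BMMs, where the mean level was 4.74 for Enpp5, 4.65 for Mustn1 and 4.74 for Rcan2.

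The 15 genes with the largest rise also included secreted and membrane proteins. Ltbp3, which holds latent TGF-β, read 5.94, 6.27 and 6.15 and then 10.37, 10.30 and 10.54, a 19.5-fold difference, and its second, dim probe was at least 1.98-fold higher. Gas6, a ligand of the TAM receptor kinases, rose 14.5-fold from 7.60, 8.08 and 7.57 to 11.55, 11.71 and 11.57. Of its receptors, picked after the values were seen, Axl was detected on 3 of 3 pre-osteoclast and 0 of 3 mature osteoclast arrays and was at least 4.18-fold lower, while Mertk, not detected in pre-osteoclasts, was at least 1.19-fold higher in mature osteoclasts. Corin, a membrane serine protease that activates natriuretic peptide, rose by 3.84, the surface protein Cd83 was at least 9.44-fold and mesothelin (Msln) at least 8.04-fold higher. Mt3, a metal-binding metallothionein, rose 21-fold, from 8.26, 9.61 and 9.60 to 13.48, 13.68 and 13.48, with pre-osteoclast replicate 1 below the other 2. Mitochondrial creatine kinase Ckmt2 rose by 3.72, and the autophagosome protein Map1lc3a by 3.63 on 1 probe and 3.36 on the other. Sgsm1 rose by 3.60 from detection on 2 of 3 arrays and Yipf7 by 3.56 from 1 of 3. The group also held 2 histone genes, H4c8 (4.43) and H2ac18 (3.80). Histone genes are near-identical copies of each other, so that a probe may read several of them.

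The 15 genes with the largest fall included 7 of cell division, which are taken up below, and a set of membrane proteins. Slc6a4, the serotonin transporter, read 9.73, 9.88 and 9.66 in pre-osteoclasts and 5.01, 4.78 and 4.81 in mature osteoclasts, where it was not detected, at least 19-fold lower (adjusted p = 1.2e-13). Its mean level in BMMs was 4.63, also below detection. Pgf, a growth factor of the VEGF family, showed the same course, with 4.72 in BMMs, 7.83, 7.87 and 8.04 in pre-osteoclasts and 4.80, 4.75 and 4.96 in mature osteoclasts (at least 5.31-fold lower). The interferon-induced membrane protein Ifitm3 fell 8.86-fold, from 13.22, 13.54 and 13.56 to 10.25, 10.41 and 10.22, and Ifitm6 at least 4.68-fold. Col18a1, a basement membrane collagen, fell by 2.64 and its second probe by 1.33, and the phosphodiesterase Smpdl3b, which modulates Toll-like receptor signaling, fell by 2.62. The nuclear pore protein Nup210 fell by 3.00 and Mns1, named for its place in meiotic nuclei, fell by 2.66.

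**Figure D2:**
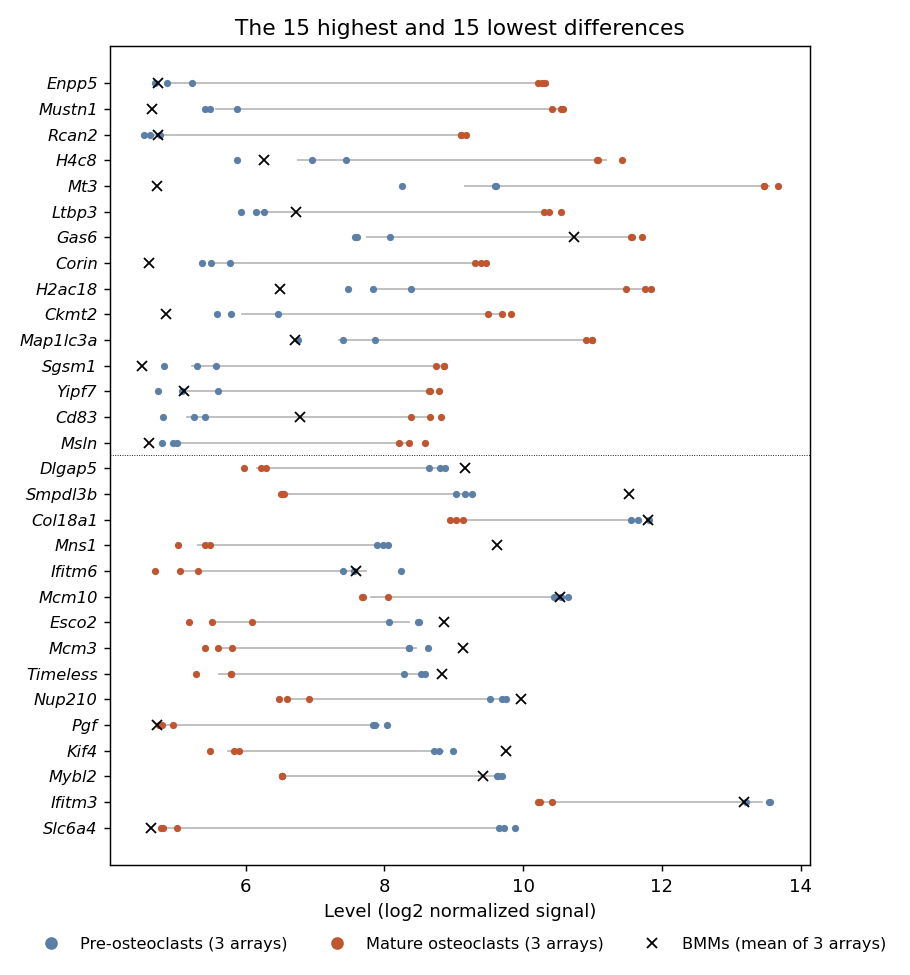
Level (log2 normalized signal) of the 15 genes with the largest rise and the 15 with the largest fall, on the 3 pre-osteoclast (blue) and 3 mature osteoclast (orange) arrays, with the mean of 3 BMM arrays (crosses). The stages do not overlap for any of the 30 genes, which the rule for naming them required, and Slc6a4 and Pgf were near background in BMMs and in mature osteoclasts.

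Genes of DNA replication and mitosis fell together. Of 33 tested replication genes, 31 fell, 1 rose and 1 did not pass, with a median of -1.67 against 0.00 over all genes, and 25 fell by at least 1 log2 unit. Of 31 tested mitosis genes all 31 fell, 30 of them by at least 1 log2 unit, with a median of -2.11. Mcm3, a subunit of the replicative helicase, read 8.35, 8.63 and 8.35 and then 5.60, 5.42 and 5.80 (7.17-fold lower, adjusted p = 1.75e-10). Mcm10, which activates that helicase, read 10.55, 10.45 and 10.65 and then 8.05, 7.68 and 7.69. The licensing factor Cdc6 fell by 2.57 and Mcm5 fell by 2.55. Timeless, of the replication fork, fell by 2.85, and Esco2, which acetylates cohesin, by 2.76. Ung, a uracil-DNA glycosylase, differed by 0.00 and Chaf1b, a histone chaperone subunit, rose from 10.45, 10.48 and 10.36 to 11.60, 11.48 and 11.54. Chaf1b was read by 1 tested probe.

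In mitosis, the spindle motor Kif11 read 8.90, 9.08 and 8.83 in pre-osteoclasts and 5.95, 6.48 and 6.59 in mature osteoclasts. The kinetochore subunit Spc25 fell by 2.57, the condensin subunit Ncapd2 by 2.54 and the midbody motor Kif23 by 2.54. Kif4, a chromosome-bound motor, fell by 3.10 on its brightest probe and was at least 3.3-fold and 3.31-fold lower on the others, and the spindle protein Dlgap5 fell by 2.61. Top2a, the topoisomerase of dividing cells, read 10.94, 10.76 and 10.61 and then 8.36, 8.31 and 8.27, a 5.48-fold fall. Its level remained above detection on all 3 mature osteoclast arrays. Mybl2, a transcription factor of the mitotic genes, fell by 3.13 on its brightest probe and was at least 2.08-fold lower on a second, and the third did not pass (limma adjusted p = 0.0562). The smallest difference of the mitosis genes was that of Bub3, which fell by 0.48 and did not pass without mature osteoclast replicate 1 (-0.36, limma adjusted p = 0.0546). Median levels in BMMs, pre-osteoclasts and mature osteoclasts were 10.09, 9.85 and 8.08 for replication genes and 10.53, 9.81 and 8.03 for mitosis genes.

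The promoters of these genes are shown for the short motifs by which cell cycle genes are known to be read, E2F-type elements in replication genes and the cell cycle homology region (CHR) in mitosis genes. Sequences are from RefSeq (GRCm38.p6) and give the 120 bases before the annotated start, 5′ to 3′ on the gene's strand, with matches in capitals. They were chosen as the called members with the largest difference that hold a match in that stretch. Mcm6 (minus strand of chr1:128359706-128359825, which fell by 1.66) and Gins3 (plus strand of chr8:95633439-95633558, which fell by 1.38), a subunit of the GINS complex of the helicase, hold TTTGGCGC or TTTCCCGC on either strand. Kif11 (plus strand of chr19:37376262-37376381, which fell by 2.60), Top2a (minus strand of chr11:99024190-99024309, which fell by 2.45) and Prc1 (plus strand of chr7:80294356-80294475, which fell by 2.35), a protein of the spindle midzone, hold TTTGAA on either strand, at 19, 23 and 30 bases before the start.
Mcm6: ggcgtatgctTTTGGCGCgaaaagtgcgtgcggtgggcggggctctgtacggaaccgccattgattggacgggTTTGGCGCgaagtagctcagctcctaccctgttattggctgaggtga
Gins3: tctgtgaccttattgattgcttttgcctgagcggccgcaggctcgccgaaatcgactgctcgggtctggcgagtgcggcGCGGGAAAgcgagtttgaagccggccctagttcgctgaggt
Kif11: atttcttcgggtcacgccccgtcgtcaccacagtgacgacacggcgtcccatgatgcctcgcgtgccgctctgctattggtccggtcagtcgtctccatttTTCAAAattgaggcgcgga
Top2a: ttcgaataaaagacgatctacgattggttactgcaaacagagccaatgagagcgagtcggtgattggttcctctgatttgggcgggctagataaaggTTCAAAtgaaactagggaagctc
Prc1: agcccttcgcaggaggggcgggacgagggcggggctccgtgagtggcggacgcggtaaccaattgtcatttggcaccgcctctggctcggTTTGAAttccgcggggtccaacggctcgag
In the 250 bases before the start, TTTGGCGC or TTTCCCGC occurred in 5 of the 29 replication genes with a promoter in the table (17.2%) and 1 of 27 mitosis genes (3.7%), against 2.76% of 6518 tested genes and 1.3% of all 32851 promoters. TTTGAA occurred in 11 of the 27 mitosis genes (40.7%) and 5 of the 29 replication genes (17.2%), against 12.8% of tested genes and 16% of all promoters. Here and below, a gene counted as holding a motif if any of its promoters did, while the share of all promoters counts single promoters. A match is a description of the sequence and not a binding site.

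Regulators of the cycle did not move as a block. The list of 15 tested genes held D cyclins, cyclin-dependent kinases (CDKs) and their inhibitors, and E2F and retinoblastoma family members. Of these, 4 rose, 6 fell and 5 did not pass. Ccnd1, the cyclin that M-CSF induces in macrophages, had a mean level of 14.46 in BMMs and read 11.92, 12.18 and 11.95 in pre-osteoclasts and 10.14, 10.15 and 10.20 in mature osteoclasts. A second probe fell by 1.69 and the remaining one fell by 2.13. The pocket protein Rbl1 fell by 2.14. Cdkn1c, the CDK inhibitor p57, read 6.98, 7.34 and 7.14 and then 9.70, 9.78 and 9.61, a 5.82-fold rise. Of the INK4 inhibitors, Cdkn2a, Cdkn2c and Cdkn2b rose by 0.94, 0.73 and 0.55 on their brightest probes and Cdkn2d fell by 0.43. Cdkn1a, which encodes p21, fell by 0.38. A second Cdkn2a probe (-0.11) and the other Cdkn1a probes (-0.07 and -0.04) did not pass.

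Nearly all factors of ribosome biogenesis fell, while most cytosolic ribosomal proteins did not pass the test. Of 38 tested factors of ribosome biogenesis 36 fell and 0 rose, with a median of -0.93. The largest falls were of nucleolar factors, where Rrp1b fell by 1.66, Nop58 fell by 1.62, Nop56 fell by 1.44 and Tcof1 fell by 1.41. Of 32 tested ribosomal proteins of the cytosol 13 fell and 19 did not pass, with a median of -0.23 that was 0.04 with median-centred arrays, and the sign of that median therefore turned with the scaling. Rps24, Rps9 and Rpl30 fell by 0.95, 0.68 and 0.65, and Rpl30 did not pass without pre-osteoclast replicate 3 (-0.50). Among 20 tRNA synthetases and their partners 13 fell, 1 rose and 6 did not pass. Vars fell by 1.14 and Eef1e1 fell by 0.89, and Sars rose by 0.57. Of 31 proteasome subunits 23 fell and 1 rose, with a median of -0.44. Psmb8 and Psmb9, subunits of the immunoproteasome, fell most, by 1.07 and 1.01, while Psmb10, also a subunit of it, differed by -0.25 and did not pass (limma adjusted p = 0.0537, and 0.0231 with -0.32 without pre-osteoclast replicate 1). Of 15 genes of serine synthesis and amino acid uptake 3 rose and 7 fell. Got1, an aspartate aminotransferase, rose by 1.17 and the carrier Slc7a3 was at least 1.69-fold higher. Among those that fell were Psat1, which read 12.03 ± 0.09 (SD, n = 3) and then 10.20 ± 0.05, Shmt1, which fell by 1.76, and the leucine transporter Slc7a5, which fell by 1.59.

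Cholesterol synthesis was the group in which each tested gene rose. All 17 tested genes of synthesis and uptake passed the test, 13 of them with at least 1 log2 unit, and the median was 1.25. Cyp51, a demethylase of lanosterol, read 7.61 ± 0.37 (SD, n = 3 arrays) after 2 days and 9.86 ± 0.06 after 4 days (4.75-fold, adjusted p = 7.04e-09). Fdps, the farnesyl diphosphate synthase that bisphosphonate drugs block in osteoclasts, read 10.40, 10.63 and 10.12 and then 12.29, 12.28 and 12.35 (3.79-fold). Insig1, which restrains the pathway when sterols are high, rose by 1.92 on its brightest probe and by 2.72 and 2.95 on the others. Nsdhl rose by 1.81, Msmo1 by 1.56, the squalene epoxidase Sqle by 1.38 and Hmgcs1, an early enzyme of the pathway, by 1.21 from 12.27, 12.06 and 12.08. The transcription factor Srebf2, which controls the pathway, rose by 1.02, and the smallest difference was that of Ebp, with 0.34. Ebp did not pass with median-centred arrays (0.35, limma adjusted p = 0.374) or with the replicate block on the 6 arrays (adjusted p = 0.0683).

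The median level of the 17 genes was 8.56 before RANKL, 7.80 after 2 days and 9.47 after 4 days, and Cyp51 had a mean of 9.03 ± 0.11 (SD, n = 3) in BMMs. Genes of cholesterol efflux and lipid carriage gave no common direction, with 2 of 9 higher and 2 lower. Apoe, the apolipoprotein that carries cholesterol out of macrophages, read 8.46, 8.59 and 8.07 and then 10.47, 10.61 and 10.40, near its mean of 10.55 in BMMs. The cholesterol exporter Abcg1 differed by -0.06 and did not pass, lipoprotein lipase (Lpl) fell by 0.85 and the lysosomal cholesterol carrier Npc2 rose by 0.59.

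The promoters of 3 genes of the pathway are given for the CCAAT box, a motif that in known sterol-responsive promoters stands near the sterol element. The 120 bases before the start of Cyp51 (minus strand of chr5:4104698-4104817), Nsdhl (plus strand of chrX:72918401-72918520) and Msmo1 (minus strand of chr8:64733579-64733698) are from RefSeq (GRCm38.p6), with CCAAT or its reverse complement in capitals.
Cyp51: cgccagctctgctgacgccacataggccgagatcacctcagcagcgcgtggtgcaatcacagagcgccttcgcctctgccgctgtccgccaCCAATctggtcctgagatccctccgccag
Nsdhl: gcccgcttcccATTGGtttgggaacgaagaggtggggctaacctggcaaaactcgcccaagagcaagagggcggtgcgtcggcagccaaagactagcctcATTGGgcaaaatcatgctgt
Msmo1: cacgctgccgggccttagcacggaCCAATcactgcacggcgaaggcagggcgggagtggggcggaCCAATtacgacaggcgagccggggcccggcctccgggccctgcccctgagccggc
CCAAT on either strand occurred in the 250 bases before the start of all 14 genes of the list with a promoter in the table, against 41.5% of the 6518 tested genes and 33.8% of all promoters. The sterol regulatory element, searched as TCACNCCAC on both strands, occurred in 1 of the 14 (7.14%), against 1.17% of tested genes and 1.05% of all promoters. Of the 27 mitosis genes 18 (66.7%) and of the 29 replication genes 16 (55.2%) held CCAAT as well.

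**Figure D3:**
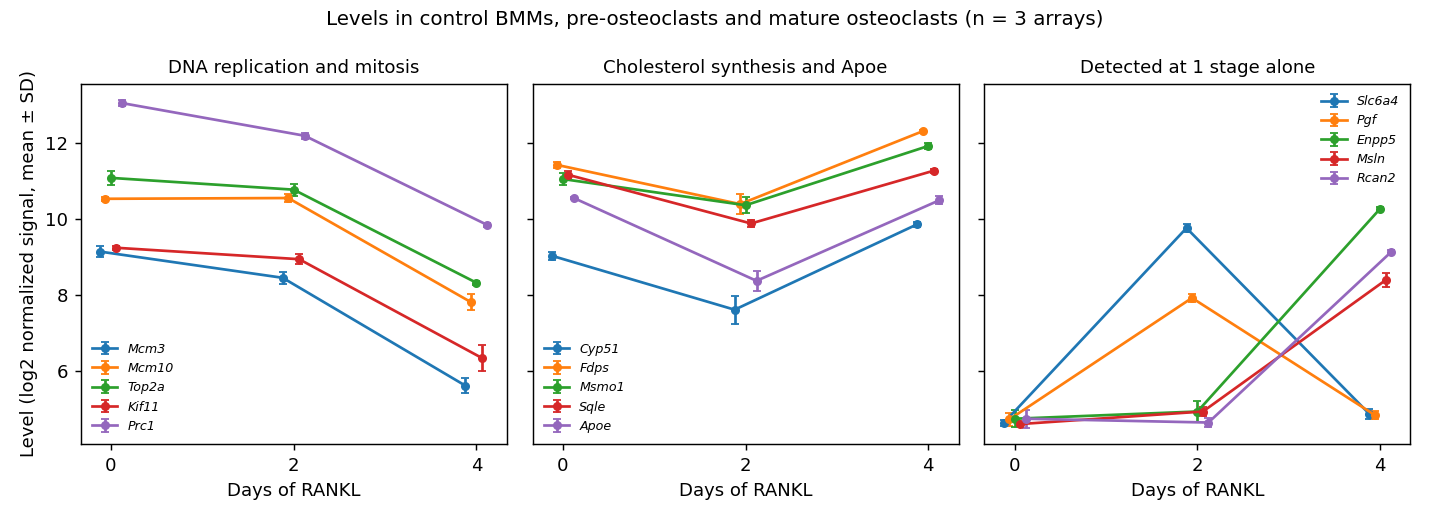
Level (log2 normalized signal, mean ± SD of 3 arrays) of 15 genes in control BMMs, pre-osteoclasts and mature osteoclasts, against days of RANKL. Of the genes drawn, those of replication and mitosis were lowest in mature osteoclasts, those of cholesterol synthesis and Apoe were lowest in pre-osteoclasts, and 5 genes were detected at 1 stage alone. Nsdhl, Mvd, Lss and Pmvk of the cholesterol list, not drawn, had their lowest mean in BMMs.

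The subunits of the respiratory complexes that passed the test were all higher, each by less than 1 log2 unit, and nearly as many did not pass. Of 33 tested subunits of complex I 17 rose, 0 fell and 16 did not pass, with a median of 0.44, and of 35 subunits of complexes II to V 20 rose and 0 fell, with a median of 0.41. Ndufa3, an accessory subunit of complex I, read 11.32, 12.53 and 12.63 in pre-osteoclasts and 12.98, 13.34 and 12.77 in mature osteoclasts and rose most of its complex, by 0.87 (adjusted p = 0.0258). Pre-osteoclast replicate 1 was the lowest of its stage for Ndufa3, Ndufb4 and Ndufa1. Without it the difference of Ndufa3 was 0.45 and that of Ndufb4 0.59, and neither passed (limma adjusted p = 0.161 and 0.143). Ndufb4 rose by 0.83, Ndufa1 by 0.80, and, of the core subunits, Ndufs8 by 0.69, while the core subunit Ndufv1 (0.18) passed only without pre-osteoclast replicate 1 (0.27) among the arrays left out in turn. In complexes IV and V, Cox7b rose by 0.84, Atp5e by 0.71 and Atp5o by 0.67. Without mature osteoclast replicate 2, Ndufa3 (0.72), Ndufb4 (0.71) and Atp5e (0.53) did not pass, nor did Ndufb4 (0.69) and Atp5e (0.66) without pre-osteoclast replicate 2, Ndufb4 (0.81) without mature osteoclast replicate 1 or Atp5e (0.45) without pre-osteoclast replicate 1. Of 18 genes of the tricarboxylic acid cycle 14 rose and 0 fell, led by Ogdh, a subunit of oxoglutarate dehydrogenase, which read 9.63, 10.05 and 9.81 and then 10.97, 10.99 and 11.11. In fatty acid oxidation 11 of 15 were higher and 0 lower. Acaa2, its last enzyme, rose 3.21-fold from 10.96, 11.20 and 10.94 to 12.68, 12.68 and 12.78, and its other 3 probes rose by 1.54 to 1.72. Decr1 rose by 1.44.

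Not all mitochondrial genes rose. Of 45 tested proteins of the mitochondrial ribosome, 6 rose, 9 fell and 30 did not pass, with a median of -0.05. Glycolysis was split too, with 7 of 19 higher and 6 lower, against 25.2% and 27.4% over all genes. The aldolase isoform Aldoc rose by 1.89, Pgk1 by 0.82 and the hexokinase Hk1 by 0.73, while the isoform Hk3 fell by 1.58, Eno3 by 1.27 and the hexose carrier Slc2a6 by 1.15. Ppargc1b and Esrra, regulators of mitochondrial biogenesis in osteoclasts, rose by 0.41 and 0.48, and neither passed with median-centred arrays (limma adjusted p = 0.274 and 0.131). Of 13 tested genes of the response to low oxygen 8 rose and 0 fell, among them Ndrg1 (by 2.16), Vegfa (by 1.02), P4ha1 (by 0.96) and Mxi1 (by 0.83), while Hif1a (-0.51) did not pass. Hif1a was past the test without mature osteoclast replicate 1 (-0.71, limma adjusted p = 0.0469).

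Lysosomal genes mostly rose, with exceptions among the cathepsins and the major membrane proteins. Of 34 tested, 22 rose, 6 fell and 6 did not pass, with a median of 0.60, and 12 rose by at least 1 log2 unit. Glb1, the β-galactosidase, read 11.25, 11.01 and 11.28 and then 13.25, 13.15 and 13.19. Arsb, an arylsulfatase that degrades dermatan sulfate, rose by 1.94 to 14.60 on its brightest probe, and the calcium channel Mcoln1 and the peptidase Tpp1 rose by 1.62 and 1.53. Ctsl, which encodes cathepsin L, was detected on 3 of 3 and then 0 of 3 arrays and was at least 2.5-fold lower. Scarb2 fell by 1.51, Ctss, the cathepsin of antigen presentation, by 1.46, and Lamp1 by 1.08. The CLEAR motif of lysosomal promoters, searched as TCACGTGA, occurred before the start of 4 of the 31 genes with a promoter in the table (12.9%), against 1.81% of tested genes and 0.785% of all promoters. It occurred in 1 of 11 V-ATPase genes (9.09%). AP-1 sites, searched as TGANTCA, occurred in 1 of the 17 resorption genes (5.88%), against 5.86% of tested genes and 6.75% of all promoters.

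**Figure D4:**
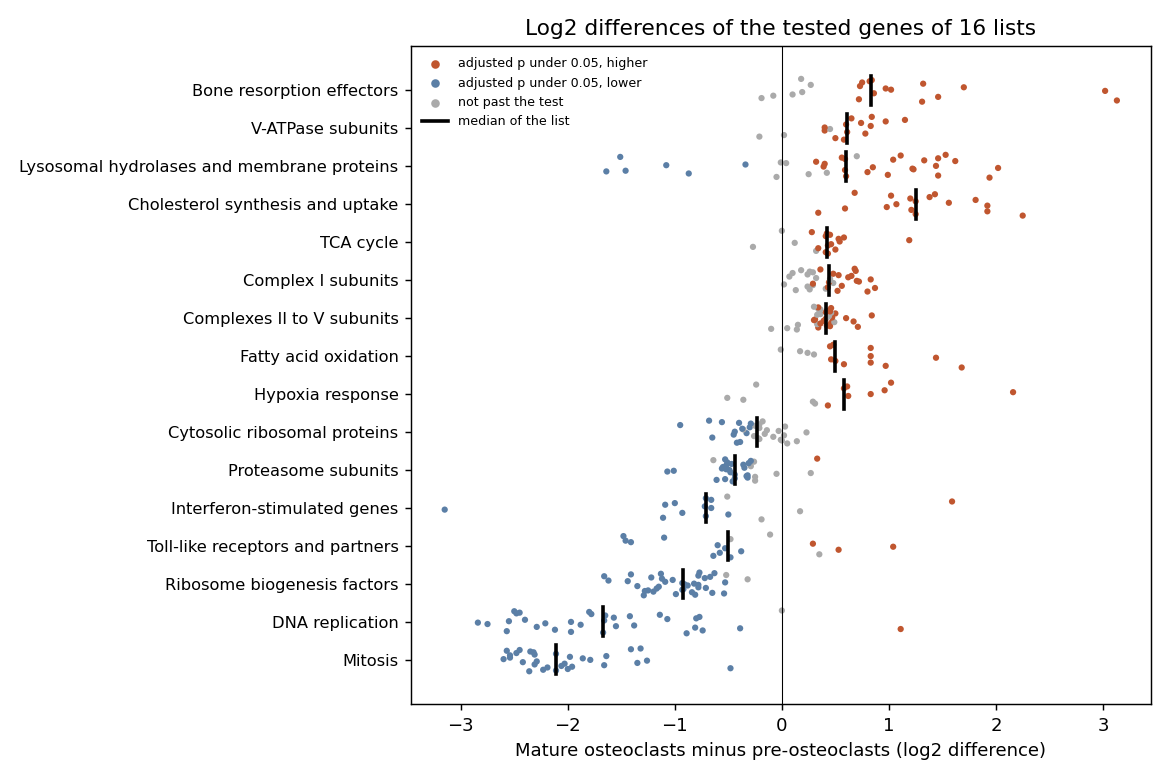
Log2 difference (mature osteoclasts minus pre-osteoclasts) of each tested gene of 16 lists, 1 dot per gene, colored by direction where the adjusted p was under 0.05 and grey otherwise, with the median of each list (black bar). Medians ran from 1.25 in cholesterol synthesis and uptake to -2.11 in mitosis.

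Vesicle traffic, the cytoskeleton and adhesion changed gene by gene. Of 25 tested Rab GTPases, 7 rose, 3 fell and 15 did not pass, against 25.2% higher and 27.4% lower over all genes. Rab38, a Rab of lysosome-related organelles, read 9.85, 9.72 and 9.50 and then 11.36, 11.32 and 11.48, and its level in BMMs was 4.78. Rab3d, which the ruffled border uses, rose by 0.73 and Rab7 by 0.44, while Rab27a fell by 1.26 and Rab8b fell by 1.16. Among 29 tested genes of the actin ring and podosomes, 10 rose and 6 fell. Rhou rose most, by 1.50, and the actin regulator Cttn rose by 0.98. The kinase Ptk2b (Pyk2), which acts with Src, rose by 0.58, while Ezr fell by 0.81. Ptk2b did not pass with median-centred arrays (0.34, limma adjusted p = 0.394). Itgb1 rose by 0.88, a call that was lost without any 1 of the arrays other than pre-osteoclast replicate 3 (0.53 to 0.95, the lowest without pre-osteoclast replicate 1). Itgav, the αv chain of the osteoclast integrin, differed by 0.10 and did not pass, and Itga6 was detected on 3 of 3 and then 0 of 3 arrays (at least 1.67-fold lower).

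Osteoclasts also release factors that act on bone-forming cells. Of 11 tested coupling factors 6 rose, 1 fell and 4 did not pass. Sphk1, the kinase that makes sphingosine 1-phosphate, read 9.19, 9.07 and 9.11 and then 11.59, 11.59 and 11.58 (5.53-fold, adjusted p = 4.26e-11), and a second, dim Sphk1 probe differed by 0.09 and did not pass. Lif, a cytokine of the interleukin 6 family, read 5.32, 4.73 and 4.96, detected on 1 of 3 arrays, and then 7.28, 6.99 and 7.72. Tgfb1 and Vegfa each rose by 1.02 and Pdgfb by 0.93, and Cxcl16 fell by 1.72. In the TGF-β family at large, 6 of 16 rose and 5 fell, against 25.2% and 27.4% over all genes. The latent TGF-β binding proteins moved in opposite directions, Ltbp3 as given above and Ltbp1 from 8.06, 7.36 and 7.79 to below detection, at least 4.67-fold lower, with a second Ltbp1 probe that differed by -0.23 and did not pass. Fstl1 was at least 3.48-fold higher, Tgfbi fell by 2.34 and the inhibitory Smad6 was at least 2.37-fold lower. Igf1 fell by 1.22 and its binding protein Igfbp4 by 1.03.

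Most Toll-like receptor and interferon-stimulated genes were lower. Of 16 tested Toll-like receptors and their partners 10 fell and 3 rose, with a median of -0.50. Tlr7 fell by 1.48, Tlr2 fell by 1.46, Tlr13 fell by 1.41 and Tlr6 fell by 1.10, and the adaptor Ticam1 rose by 1.04. Of 15 interferon-stimulated genes 11 fell and 1 rose, with a median of -0.71. After Ifitm3 the largest falls were those of Ddx58, at least 1.53-fold, and of Isg15, which fell by 1.09, and Oasl1 was at least 2.71-fold higher on its brighter probe. Isg15 did not pass without pre-osteoclast replicate 2 (-0.98) or 3 (-0.88) or mature osteoclast replicate 1 (-0.96) or 2 (-0.99). Of 11 genes of MHC class II presentation 6 fell and 1 rose, with the costimulatory protein Cd80 down by 1.53. H2-Ab1, a class II chain, fell by 0.72 on its brightest probe, and its other 3 probes differed by -0.48, -0.11 and 0.20, the first of them past the test. Cytokines were split, Il10 having gone from 6.47, 7.08 and 7.27 to below detection (at least 2.7-fold lower) while Lif rose. Chemokines fell in 6 of 10 and rose in 1. Of 9 tested C1q and Fc receptor genes 1 rose, 4 fell and 4 did not pass. Fcgr4 and Fcgr2b, receptors for antibody, fell by 1.30 and 0.94, and the complement subunit C1qa rose by 0.77. Ncf1, a subunit of the phagocyte oxidase, fell by 1.35, while Rac2 rose by 1.11.

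Markers of other cell types moved with these genes. Of 13 macrophage markers on the array 7 were tested, of which 5 fell, 1 rose and 1 did not pass. Mertk, given above as a lower bound, was the marker that rose. Cx3cr1, a receptor for fractalkine, read 7.96, 7.88 and 7.30 and then 4.99, 5.06 and 5.32, at least 4.6-fold lower, after a mean of 12.39 in BMMs, and Adgre1, a macrophage surface receptor, fell by 0.97 and remained at 10.04. The macrophage markers summed to a linear signal of 4321 to 4634 at day 2 and of 2640 to 2836 at day 4. Of 11 neutrophil markers 10 were tested and 7 fell, with a median of -1.07. Mpo, the myeloperoxidase, was detected on 3 of 3 and then 0 of 3 arrays by its brighter probe, a dim one having differed by 0.03, and S100a8 and S100a9 fell by 1.43 and 1.49. Their sum ran from 5618 to 12601 at day 2 and from 2964 to 4026 at day 4, and Mmp8 was not detected on any of the 6 arrays. Dcn, a proteoglycan of stromal cells, fell by 1.26 from 8.87, while 9 of 11 stromal markers, Col1a1 and Col1a2 among them, were not detected. Markers of B cells, T and NK cells and erythroid cells were not tested, being at or near background. The part of these cells in the changes of immune and cell cycle genes was not tested.

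Of 17 tested genes of the BCL-2 family and its partners, 9 rose and 4 fell. Pmaip1 (NOXA), a pro-apoptotic protein, read 7.30, 7.08 and 6.58 and then 9.46, 9.81 and 9.60 on the brighter probe (6.23-fold), and a second probe rose by 2.66. Bad rose by 0.94 and Bcl2l2, which protects cells, by 0.82. Fas fell by 1.34 and Bcl2l11, which encodes BIM, by 0.60 on the brightest of 4 probes, 2 of which passed. The probes of Bid disagreed, the brighter having fallen by 1.67 and a dim one having risen by 0.58. Of 20 tested genes of the unfolded protein response and its chaperones, 6 rose, 5 fell and 9 did not pass. Over all genes the shares were 25.2% higher and 27.4% lower. Ppp1r15a and Ddit3 (CHOP) rose by 1.56 and 1.43. The chaperones went both ways. Calr rose by 0.65, Creld2 and Hsp90b1 fell by 0.62 and 0.61, and Hspa5 (0.02) did not pass. Hsp90b1 did not pass with median-centred arrays (-0.44, limma adjusted p = 0.258). Egr1, an immediate early gene, rose by 1.98 and Ier3 fell by 1.23. Among 13 genes of iron handling 7 rose, including the transferrin receptor Tfrc (by 1.05 to 14.36) and the iron carrier Slc11a2 (by 1.18), and the phagosomal carrier Slc11a1 fell by 0.87. Mt1 rose by 0.33 from 14.27, close to the top of the scale, with overlapping stages, and did not pass without pre-osteoclast replicate 1 (0.16) or mature osteoclast replicate 1 (0.32) or 2 (0.27). Of 18 tested peroxide and superoxide defense genes 3 rose, 6 fell and 9 did not pass. Nqo1 fell by 1.42 and Prdx4 by 1.20. Gpx3 rose by 1.20, from detection on 2 of 3 arrays, and Gpx4 by 0.72. Of 11 nuclear receptors 5 rose and Pparg alone fell. The probes for Esr1 and Esr2, the estrogen receptors, were not detected on any of the 6 arrays, so that these data say nothing of their levels.

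Some genes were detected at particular stages only. Of the tested genes, 1985 rose and 2160 fell from pre-osteoclasts to mature osteoclasts. Among these, 51 were detected on 0 of 3 arrays at both earlier stages and on 3 of 3 after 4 days. They were led by Enpp5, Rcan2, Msln, Vsig8 (at least 7.04-fold), Efna1 (at least 4.38-fold), a ligand of Eph receptor kinases, and Fstl1. A further 21 were detected on 3 of 3 arrays in pre-osteoclasts alone. Beside Slc6a4, Pgf and Ltbp1, these included Prl2c4 (at least 3.83-fold lower in mature osteoclasts) and Gfi1b (at least 3.99-fold lower), a transcriptional repressor of blood cell precursors. A further 111 were detected on 3 of 3 arrays at both earlier stages and on 0 of 3 after 4 days, and 13 were detected in BMMs and mature osteoclasts but on 0 of 3 pre-osteoclast arrays, Cd83 (6.79, 5.16 and 8.62 at the 3 stages) and Flt1 (7.67, 5.05 and 6.49), a VEGF receptor that binds Pgf, among them. Fewer probes were detected on the mature osteoclast arrays (10770 to 11220) than on the pre-osteoclast arrays (11333 to 11948). The lowest detected signal was 5.46 to 5.60 there, against 5.28 to 5.43 in pre-osteoclasts. The part of this in the counts of each pattern was not tested. A probe below detection gives a bound and not a level, and low expression at the other stages cannot be told from none.

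The same step in ERαΔLysM cells, measured on 6 other arrays, had 5811 probes past the test, and the difference between the genotypes was tested on all 11484. It passed for 2 probes (0.0174%), with 480 at an unadjusted p under 0.05. Kitl, the ligand of the KIT receptor, read 5.05, 4.81 and 4.87 in control pre-osteoclasts, where it was not detected, and 6.13, 6.02 and 5.95 in control mature osteoclasts (at least 1.57-fold higher), and was detected on 0 of 3 arrays at each of these stages in ERαΔLysM cells, with means of 4.85 and 4.81. The difference between genotypes passed the test (limma adjusted p = 0.0231), but 3 of the 4 groups behind it were below detection, so that its size is not known. In BMMs the Kitl probe was detected on 3 of 3 control arrays (mean 5.83) and on 0 of 3 ERαΔLysM arrays (mean 5.19). For Ryr1, the calcium release channel of skeletal muscle, 1 of 3 tested probes fell from 6.57, 6.68 and 6.44 to 5.35, 5.79 and 5.24 in control cells and differed by 0.04 in ERαΔLysM cells (difference 1.15 ± 0.17 SE, adjusted p = 0.04). The other 2 Ryr1 probes gave an adjusted p of 1 for the difference between genotypes. Ktn1, Gal3st4 and Tacc1 came next by p and did not pass (adjusted p = 0.241, 0.407 and 0.407). The Kitl probe and the called Ryr1 probe read at most 6.68 on the 6 control arrays. The call for Kitl was lost without pre-osteoclast replicate 2 or mature osteoclast replicate 1 or 3 (limma adjusted p = 0.0557, 0.129 and 0.0553), and that for Ryr1 without pre-osteoclast replicate 1 or 2 or mature osteoclast replicate 1 or 3 (0.145, 0.121, 0.203 and 0.137).

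In ERαΔLysM cells the median was -2.11 for mitosis genes, -1.72 for replication genes, 1.22 for cholesterol synthesis and uptake, 0.70 for bone resorption and 0.43 for complex I, against -2.11, -1.67, 1.25, 0.83 and 0.44 in control cells. It was -0.25 against -0.44 for repressors of the osteoclast fate, -0.05 against -0.27 for inflammatory cytokines, -0.23 against -0.07 for the TGF-β family and -0.06 against 0.12 for cholesterol efflux. The differences between these medians were not tested. Slc6a4 was detected on 3 of 3 pre-osteoclast and 0 of 3 mature osteoclast arrays in both genotypes, and Enpp5 on 0 of 3 and then 3 of 3. A p that misses the threshold does not show that the genotypes act alike.

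**Figure D5:**
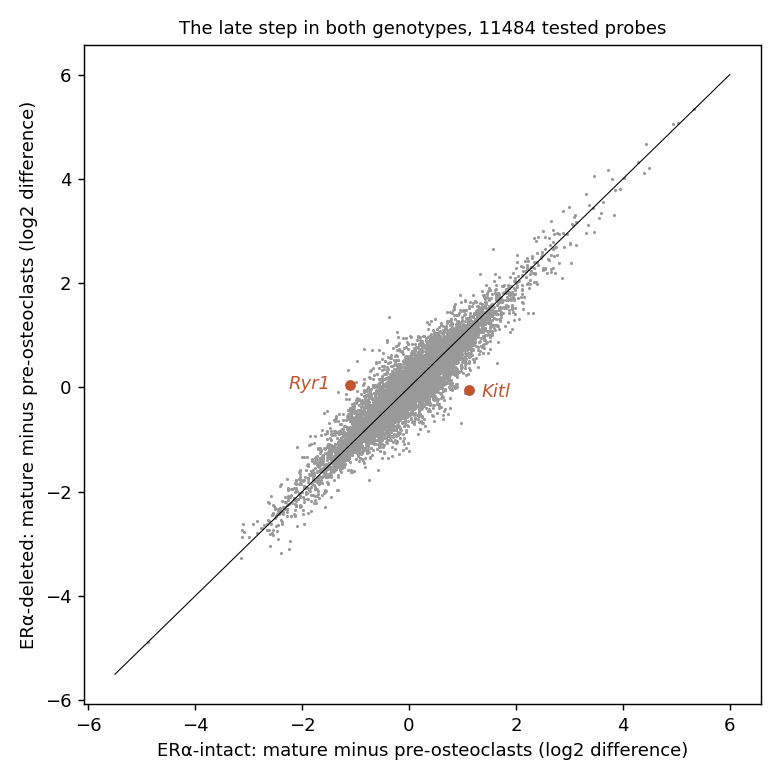
Log2 difference between mature osteoclasts and pre-osteoclasts of 11484 tested probes in ERα-intact cells (x axis) and in ERα-deleted cells (y axis), 3 arrays per genotype and stage, with the line of equal differences. Kitl and 1 Ryr1 probe (orange) passed the test of the difference between genotypes.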

How the data were processed

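RNA from control BMMs, pre-osteoclasts and mature osteoclasts, and from the same stages of ERαΔLysM cells, was labelled as biotinylated cRNA and hybridised to 18 Illumina MouseRef-8 arrays. The deposited scanner table holds the intensity and the detection p-value of each probe, with no normalization. The deposited log2 values were normalized by the authors with lumi, with settings not given in the sources used here. They differed by at most 0.0281 from normexp background correction with an offset of 16 and quantile normalization (limma's neqc) of the scanner intensities, and were used as they are. Groups were taken from the sample titles. Of 26529 features, 832 (3.14%) without a probe ID were left out. Of the 25697 probes, 23978 had 1 gene symbol in the platform annotation and 1719 had none, and 23962 symbols were matched to RefSeq.

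Probes with a detection p-value under 0.05 on at least 3 of the 6 control arrays were fitted with limma 3.58.1 in R 4.3.3, with a mean for each of 6 groups of 3 arrays, on 12 residual degrees of freedom, and p-values were adjusted over all tested probes. A gene is given by its tested probe of the highest mean level. Where a gene was not detected on any array of a stage, the fold is a lower bound against the lowest signal detected on each array. The number of arrays limits the precision. Genes named are the 15 highest and 15 lowest differences with non-overlapping stages, up to 4 members of each list in each direction with up to 2 that did not pass, a set of osteoclast and cell cycle genes named throughout, and the 5 probes of smallest p for the difference between genotypes. Other genes (among them Slc4a2, Ostm1, Axl, Mertk, Flt1, Vsig8, Efna1, Prl2c4, Gfi1b, Mcm6, Gins3 and Prc1) and the promoter motifs were picked after their values were seen. The members and the gene lists were chosen with earlier results of these data known. Csf1r and Mki67 were not analysed here. The scripts were tested on simulated data. Alternatives were other input values, background correction, normalization, filters, arrays left out, blocks, priors, array weights, a test against a log2 difference of 0.5 and the mean over a gene's probes.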

Additional observations from a re-analysis of the deposited data

Results flagged for a closer look

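The late step differed between the genotypes for 2 probes by the test of the difference itself. For Kitl the difference of the log2 differences, ERαΔLysM minus control, was -1.17 ± 0.16 (SE, limma adjusted p = 0.0231). The probe was detected on 3 of 3 control mature osteoclast arrays and on 0 of 3 arrays of each of the other 3 groups compared, so that this size rests on values below detection and is not a measured difference. In BMMs, outside that comparison, the probe was detected on 3 of 3 control and 0 of 3 ERαΔLysM arrays. For 1 probe of Ryr1 it was 1.15 ± 0.17 (limma adjusted p = 0.04), while the other 2 tested probes of Ryr1 gave -0.59 and -0.05 with an adjusted p of 1.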

How the results depend on the processing

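No probe that passed both the main test and the same test under an alternative changed its sign. Probes whose call was lost were left out of that check. The mean over a gene's probes was applied to the list medians only. The count of 5881 probes past the test was 3374 with median-centred arrays, which shared 55.3% of the calls, and 1870 in a test against a log2 difference of 0.5, and was between 5000 and 6003 under the other alternatives. Leaving out each array in turn gave 5184 to 5538. The count of 1673 probes with at least 1 log2 unit was 708 without background correction and 1668 to 1776 with an array left out. With median-centred arrays it was 1792, of which 36.7% were higher, against 47.7% in the deposited values, and the median of all probes shifted by -0.09. The count of 2 probes for the difference between genotypes was 0 without background correction, with median-centred arrays, with detection on all 6 arrays and with a trended robust prior, and 1 with no filter and with a replicate block within genotype. It was 0 to 3 with an array left out, 0 without mature osteoclast replicate 1 or 3. With the replicate block the count of probes past the test was 5879, and with the block within genotype 5766. Arrays of the same number deviated together with correlations of 0.13, 0.02 and -0.09, those of different numbers with -0.20 to 0.17. So few pairs cannot decide whether equal numbers share a mouse or a culture. With median-centred arrays the sign turned for Ctsk (0.18), Atp6v0a2 (-0.04), Bcl6 (-0.11), Itgav (-0.04) and Ung (-0.09), none of which passed, and for the medians of cell fusion (-0.02), cytosolic ribosomal proteins (0.04) and integrins (-0.03). Array weights turned Ung (-0.01). The median of the osteoclast transcription factors was 0.02 with detection on all 6 arrays, and with no filter the medians of cholesterol efflux and of the insulin-like growth factor axis were -0.03 and 0.13. With an array left out, the sign also turned for genes near 0, Abcg1 (-0.26 to 0.03), Atp6v0a2 (-0.12 to 0.12), Bcl6 (-0.05 to 0.08), Tnfrsf11a (-0.09 to 0.11) and Ung (-0.08 to 0.11). Of the genes named in the text that passed the test, 219 were followed through the alternatives. Of these, 29 did not pass with median-centred arrays, Nfatc1, Spi1, Ocstamp and Ebp among them. In the test against 0.5, 57 did not pass, and 0 to 11 did not under each of the other alternatives. Hif1a, Ndufv1 and Psmb10, which had not passed, did so under 2, 1 and 6 alternatives. The causes were not tested. Signal over background limits what can be said of dim probes, and the top of the scale what can be said of Ctsk and Mmp9.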

Other observations

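Among the lists not described above, the chemotactic and sphingosine phosphate receptors had 1 of 8 tested genes higher, S1pr2 (by 1.12), and 5 lower, among which P2ry14 fell by 1.19 and C5ar1, not detected in mature osteoclasts, was at least 1.42-fold lower. In the metallothionein and zinc transport list 4 of 10 rose and 2 fell, Mt3 having the largest rise. Immediate early genes had 5 of 16 higher and 5 lower.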
